A study of Mus musculus with 28 samples.

Results

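Mir99ahg, Meg3, Rian and Mirg are long noncoding RNAs whose genes contain microRNA hairpins other than those of miR-124. They were picked by name as hosts of other microRNAs, 4 of 41549 named genes in the deposited tables, and Mir99ahg was proposed because of its values in these libraries, so its differences between groups are given as a description without a test. The study injected mice in the motor cortex with adeno-associated virus (AAV) vectors for Cas9, a nuclease directed by guide RNAs. Each of 7 animals, numbered 17 to 23, received AAV-Cas9-miR-124-empty on the left and AAV-Cas9-miR-124-g4 on the right, so vector and hemisphere cannot be told apart. The vectors are called empty and g4 here. Not given in the sources used here are the meaning of g4, the promoter that drives Cas9, and the age, strain and sex of the animals. After fixation, nuclei were labelled with an antibody to the HA tag and sorted by fluorescence into HA-positive nuclei, labelled as carrying Cas9, and HA-negative nuclei from the same hemispheres. This gave 4 groups of 7 libraries, 28 in all, namely HA-positive nuclei of the empty and of the g4 hemisphere and HA-negative nuclei of each, and every animal carried both vectors, so no group is untreated.

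A host transcript carries one or more hairpins in an intron or exon, and cutting by Drosha and then Dicer releases the mature microRNA, which pairs with messenger RNAs mainly through its seed (bases 2 to 8). Mir99ahg carries the cluster of miR-99a, let-7c and miR-125b. Meg3, Rian and Mirg lie one after the other on the same strand of the imprinted Dlk1-Dio3 domain and are expressed from the maternal chromosome, Meg3 as a nuclear RNA abundant in neurons, Rian as host of many small nucleolar RNAs (snoRNAs) and a few microRNAs, and Mirg as host of a large microRNA cluster.

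Mir99ahg (ENSMUSG00000090386) lies on chromosome 16 of GRCm38, from 77236317 to 77773427 on the plus strand. On chromosome 12, also on the plus strand, Meg3 (ENSMUSG00000021268) runs from 109541001 to 109571726, Rian (ENSMUSG00000097451) from 109603940 to 109661716 and Mirg (ENSMUSG00000097391) from 109729764 to 109749460. RefSeq (GRCm38.p6) places 22 microRNA genes with 41 mature sequences inside these 4 genes on the same strand: 14 genes in Mirg, 3 in Rian, 2 in Meg3 and 3 in Mir99ahg. The 3 mature guide strands of Mir99ahg and the closest relative of one of them are shown first, because they carry the family names of the cluster, with the seed in capitals, 5′ to 3′.
miR-99a-5p: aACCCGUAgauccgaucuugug
let-7c-5p: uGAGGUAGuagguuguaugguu
miR-125b-5p: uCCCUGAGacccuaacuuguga
miR-100-5p: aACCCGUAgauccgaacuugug
The last one comes from Mir100hg, a related host on chromosome 9 (41327077 to 41716994) that carries miR-100, let-7a-2 and another copy of miR-125b. Counted from the 5′ end, miR-99a-5p and miR-100-5p differ by 1 base (U16A, the miR-99a-5p base first) and share their seed, so the same seed is encoded in both hosts. The let-7c-5p seed is carried by 10 further mature names in the RefSeq table, and miR-125b-5p has the same sequence from both hosts.

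The hosted sequences of the Dlk1-Dio3 domain are shown for 1 microRNA of Meg3, 1 of Rian and 5 of Mirg, because they include seeds of 1 host that differ by a single base.
miR-770-5p (Meg3): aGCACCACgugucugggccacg
miR-370-3p (Rian): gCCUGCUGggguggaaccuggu
miR-134-5p (Mirg): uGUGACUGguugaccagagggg
miR-154-3p (Mirg): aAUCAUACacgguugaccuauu
miR-485-3p (Mirg): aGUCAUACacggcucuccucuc
miR-369-3p (Mirg): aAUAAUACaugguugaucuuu
miR-410-3p (Mirg): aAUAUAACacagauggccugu
Within Mirg, miR-154-3p and miR-485-3p differ in their seeds at 1 position (A2G), and miR-154-3p and miR-369-3p at another (C4A), with the miR-154-3p base given first. Over the 41 mature sequences there were 40 different seeds, and the only seed found more than once was that of miR-453 and miR-496a-5p, both in Mirg.

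None of these mature microRNAs was measured, since the libraries were made from nuclear RNA for transcript sequencing, and the values below are those of the host genes. The 23 annotated microRNA genes inside the 4 hosts on the same strand had 0 counts in all 28 libraries. Over both regions, 69 microRNA genes had 1 count in all, for Mir487b. How reads in overlapping genes of the same strand were assigned is not given in the sources used here. Reads of a hairpin or a snoRNA and reads of its host therefore cannot be told apart by these tables. Whether reads were assigned by strand is not given either, so the same holds for genes on the opposite strand within a host.

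Libraries held 248612 to 902944 counts and 8687 to 13668 detected genes. The 4 with fewer than 10000 genes were all HA-positive (empty of animals 17, 21 and 22, and g4 of animal 18). In animal 19, the g4 HA-positive library contained Xist, the RNA of the inactive X chromosome of females, at 646 CPM (counts scaled to the library size) together with 48.1 CPM summed over 4 Y-linked genes, and it had the highest oligodendrocyte and microglia marker sums of its group, so results that rest on it are also given without it. The empty HA-negative library of animal 22 held Xist at 991 CPM with 2 Y-linked counts. The HA-positive fraction held fewer oligodendrocyte transcripts than the HA-negative one: the sum of 10 markers was 53.8 to 131 CPM in empty HA-positive, 110 to 1568 in g4 HA-positive (at most 233 without animal 19), 1280 to 2189 in empty HA-negative and 1552 to 2790 in g4 HA-negative libraries. Sums of 8 inhibitory neuron markers went the other way, with 1900 to 3622, 1444 to 3101, 698 to 952 and 573 to 982 CPM in the same order of groups, and those of 7 excitatory neuron markers were 832 to 1799, 1417 to 1915, 1784 to 2399 and 1586 to 2266 CPM. Endothelial markers were at or near 0, with sums of at most 34.5 CPM.

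**Figure D1:**
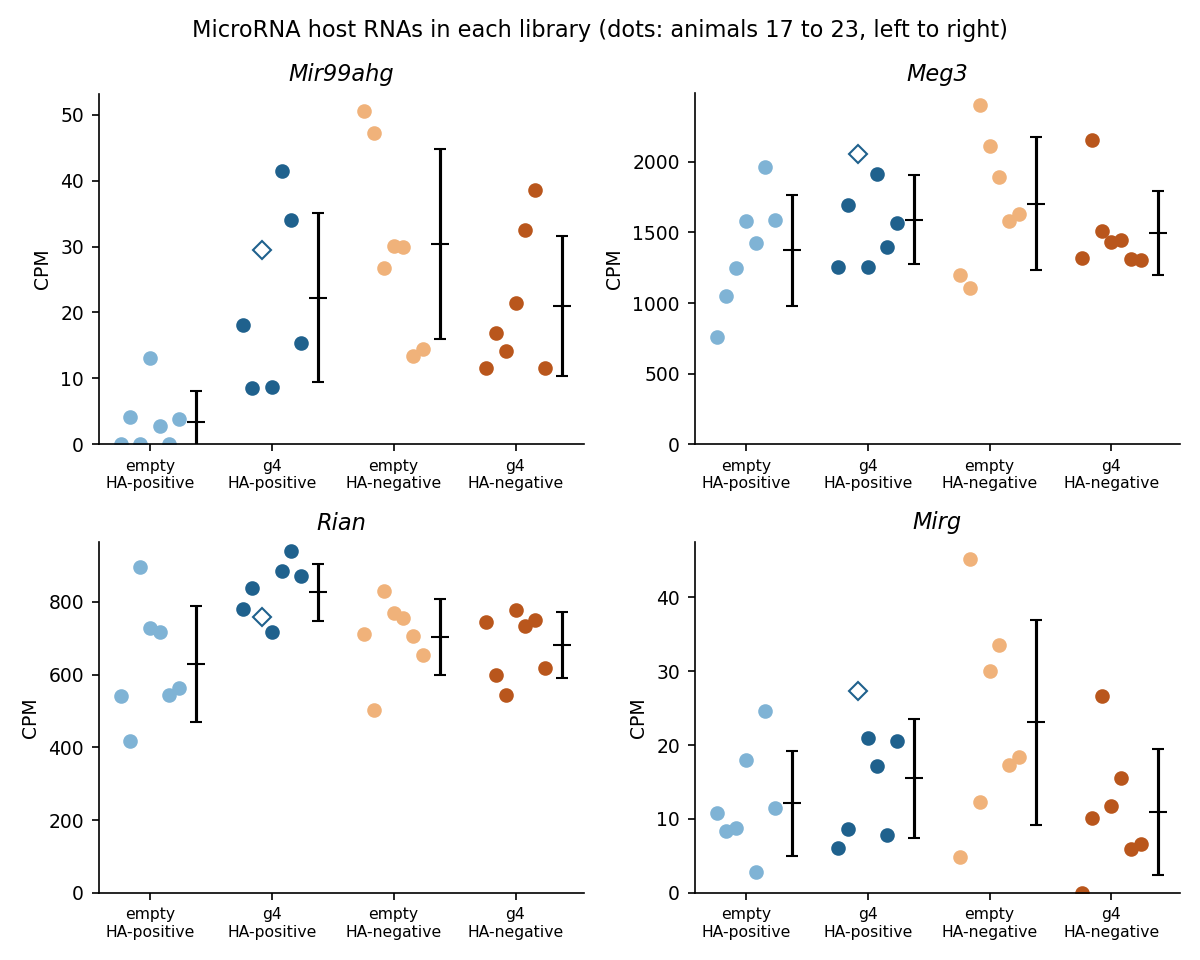
Level of each host RNA in CPM (vertical axes, linear from 0) in the 28 libraries, 7 per group, with the mean and SD at the right of each group; within a group the points run from animal 17 to 23, and the open diamond is the g4 HA-positive library of animal 19. Mir99ahg lies at 0 to 13.0 CPM in empty HA-positive libraries, while the 4 groups overlap for Meg3, Rian and Mirg.

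The 4 hosts differed widely in level. Divided by annotated exon length, Meg3 stood highest, with group means of 75.9 (empty) and 87.9 (g4) CPM per kb in HA-positive and of 94.2 (empty) and 82.8 (g4) in HA-negative libraries. Rian came next with 34.5, 45.4, 38.6 and 37.4 CPM per kb in the same order, then Mirg with 1.66, 2.12, 3.17 and 1.5. Mir99ahg had 0.239, 1.56, 2.12 and 1.47 CPM per kb, close to Mirg in all groups but the first. Whether the authors counted reads in introns is not given in the sources used here, so these levels per kb hold only if counting was over exons. Together, Meg3, Rian and Mirg took 0.110 to 0.319% of all counts of a library.

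Mir99ahg, the host of the miR-99a, let-7c and miR-125b cluster, was low in empty HA-positive nuclei and higher in the other 3 groups. In empty HA-positive libraries it had 0, 2, 0, 8, 1, 0 and 1 counts in animals 17 to 23, which is 0 to 13.0 CPM with a median of 2.82 and a mean of 3.42 ± 4.63 (SD, n = 7). A count of 0 allows up to 10.8, 8.82 and 6.17 CPM in animals 17, 19 and 22 (3 counts per library, counting error only), so absence was not shown at this depth. In g4 HA-positive libraries the counts were 9, 3, 27, 5, 29, 13 and 6, or 8.61 to 41.4 CPM with a median of 18.2 and a mean of 22.3 ± 12.8 (21.1 ± 13.6 without animal 19, n = 6). Every g4 HA-positive library except that of animal 20 exceeded its empty counterpart, and the ranges overlapped, since animal 20 had the highest empty value and one of the lowest g4 values.

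In HA-negative nuclei, Mir99ahg ranged from 13.4 to 50.6 CPM with the empty vector (median 30.0, mean 30.3 ± 14.4) and from 11.6 to 38.6 CPM with g4 (median 16.9, mean 21.0 ± 10.6; SD, n = 7 each). It was lower with g4 in 5 of 7 animals, and the ranges overlapped over most of their width (log2 difference -0.48 ± 0.37, SE). With 1 animal left out it lay between -0.82 (without animal 22) and -0.21 (without animal 17), with -0.29 without animal 18, while without animal 21 it did not pass the filter.

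Within the empty hemisphere, Mir99ahg was lower in HA-positive than in HA-negative nuclei in 7 of 7 animals, and the groups did not overlap, although the gap was small, from 13.0 to 13.4 CPM. Non-overlapping groups were found for 3.09% of the 5538 genes that passed the filter on low counts in that comparison (171 genes), and Mir99ahg did not pass it. Leaving out the empty HA-positive libraries with fewer than 10000 genes kept animals 18, 19, 20 and 23, at 4.21, 0, 13.0 and 3.84 CPM. In the g4 hemisphere it was higher in HA-positive nuclei in 4 of 7 animals and lower in 3, with a log2 difference of 0.09 ± 0.41.

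The contrast of the vector effects between fractions, from which Mir99ahg was proposed, had a log2 value of 2.94. It lay between 2.47 and 4.09 over 15 alternatives. Because the choice rested on this contrast, its size and its stability are a description and no support for a difference. Leaving out animal 19's g4 HA-positive library gave 2.84, and without the HA-positive libraries of fewer than 10000 genes 2.47. Mir99ahg did not pass the filter on low counts in g4 against empty HA-positive nuclei or in the sort of empty-vector nuclei, the 2 comparisons in which its group means differ most. Fitted without the filter, the log2 differences there were 2.50 and -2.88, again as a description.

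The empty HA-positive group also had low glial marker sums and low numbers of detected genes. Between 3 and 9 of 10 oligodendrocyte markers were detected in those libraries, with Opalin at 0 in all 7, and between 1 and 4 of 10 microglia markers, with Cx3cr1, P2ry12, C1qa, C1qc and Gpr34 at 0 in all 7. Microglia sums were 7.17 to 46.1 CPM there and 282 to 650 CPM in empty HA-negative libraries, and astrocyte sums 714 to 1505 against 1326 to 1717 CPM. In g4 HA-positive libraries without animal 19 the oligodendrocyte and microglia sums stayed at or below 233 and 48.9 CPM, with Mir99ahg at a mean of 21.1 CPM, while astrocyte sums were 1003 to 2745 CPM. The part of cell composition and of depth in the level of Mir99ahg was not tested, and fewer cells of a type and less RNA per cell cannot be told apart in these sorted pools.

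**Figure D2:**
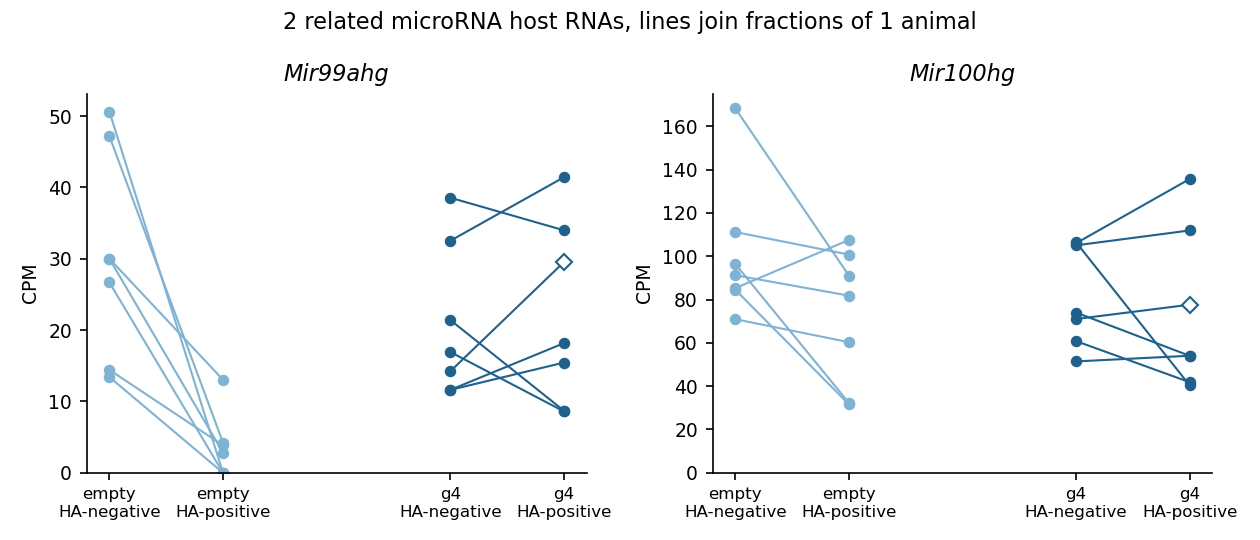
Levels of Mir99ahg and of the related host Mir100hg in CPM (vertical axes, linear from 0), with a line joining the HA-negative and HA-positive library of each animal for the empty (left of each panel) and g4 (right) hemisphere; the open diamond is the g4 HA-positive library of animal 19. All 7 empty lines of Mir99ahg fall, to 0 to 13.0 CPM, while those of Mir100hg end at 31.6 to 108 CPM.

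Mir100hg, which encodes the seed of miR-99a again and the same miR-125b-5p, had counts in every library. Its mean was 72.2 ± 31.3 CPM in empty HA-positive, 73.6 ± 37.0 in g4 HA-positive, 101 ± 32.1 in empty HA-negative and 82.1 ± 23.4 in g4 HA-negative libraries (SD, n = 7 each). In the empty hemisphere it was lower in HA-positive nuclei in 6 of 7 animals, and its log2 fold change of -0.48 ± 0.28 did not pass (adjusted p 0.363 by edgeR's quasi-likelihood test). The difference of the vector effects was 0.36 ± 0.38 (adjusted p 0.996 by edgeR).

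Among the 7 listed neighbours of Mir99ahg on chromosome 16, 4 had enough counts to be tested, namely Usp25, Nrip1, Cxadr and Ncam2. Of these 1 was called, Ncam2, in the sort of empty-vector nuclei, where 7.01% of all genes tested were called. In that sort Usp25 (log2 fold change 0.72 ± 0.36, higher in 6 of 7 animals), Nrip1 (0.27 ± 0.25) and Cxadr (0.11 ± 0.47) were higher in HA-positive nuclei, uncalled. Ncam2, a neural cell adhesion molecule, had 87.9 ± 38.6 CPM in empty HA-positive and 184 ± 11.4 in empty HA-negative libraries (SD, n = 7). It fell by 1.07 ± 0.21 on the log2 scale in HA-positive nuclei, lower in 7 of 7 animals and with no overlap (adjusted p 0.00122 by edgeR). With g4 it was again lower in 7 of 7 animals, at 138 ± 44.4 against 198 ± 14.1 CPM (log2 fold change -0.51 ± 0.17, adjusted p 0.0669 by edgeR). That value passed with the animal as a block (adjusted p 0.0412), and it also passed (-0.64, adjusted p 0.0100) when animal 19's g4 HA-positive library was left out. The test of the difference of the vector effects for Ncam2 was not passed (0.58 ± 0.27, adjusted p 0.971 by edgeR). For Usp25 (-0.52 ± 0.47), Nrip1 (-0.31 ± 0.34) and Cxadr (-0.09 ± 0.57) that difference was negative.

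Meg3, the most abundant of the hosts, differed between groups by less than the spread within them. It ranged from 760 to 1962 CPM in empty HA-positive (median 1422, mean 1372 ± 395), from 1254 to 2054 in g4 HA-positive (median 1565, mean 1590 ± 315, or 1512 ± 262 without animal 19), from 1103 to 2402 in empty HA-negative (median 1630, mean 1703 ± 470) and from 1307 to 2151 in g4 HA-negative libraries (median 1435, mean 1497 ± 299; SD, n = 7 each). The lowest library was the empty HA-positive one of animal 17, which is among those with fewer than 10000 genes, and all 4 ranges overlapped. That library also had the largest share of ribosomal RNA in its group, 39.0% of counts. The share was smallest, 19.6%, in animal 22, which had the highest Meg3 of that group. In empty HA-negative libraries the largest share, 38.1% in animal 20, went with 2112 CPM of Meg3. The part of ribosomal RNA in the level of Meg3 was not tested.

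Between the vectors, Meg3 had a log2 fold change of 0.20 ± 0.16 in HA-positive nuclei (95% interval -0.14 to 0.53, higher with g4 in 4 of 7 animals, adjusted p 0.870 by edgeR). Of the 5011 genes tested there 3 were called, or 0.0599%, and neither Meg3 nor Rian, the hosts that passed the filter on low counts, was among them. Leaving out animal 19's g4 HA-positive library gave 0.13 for Meg3. In HA-negative nuclei it was -0.19 ± 0.18 (lower in 5 of 7, adjusted p 0.999), where 0.0% of 6262 genes were called by edgeR, against 1 by DESeq2 and 0 by limma voom, with 236 genes at an unadjusted p under 0.05. The difference of the effects was 0.40 ± 0.26 (adjusted p 0.996 by edgeR), in a comparison where 0.0% of 7197 genes were called by edgeR, DESeq2 or limma voom and 359 had an unadjusted p under 0.05.

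Between the fractions, Meg3 was lower in HA-positive nuclei in 6 of 7 animals with the empty vector (log2 fold change -0.30 ± 0.20, adjusted p 0.466 by edgeR). In that sort 388 of 5538 genes were called (7.01%). With g4, Meg3 was higher in HA-positive nuclei in 4 of 7 (0.09 ± 0.12, adjusted p 0.788 by edgeR), in a comparison with 401 of 6264 genes called (6.4%). Meg3 and Rian were called in neither sort, and Mirg did not pass the filter in either.

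**Figure D3:**
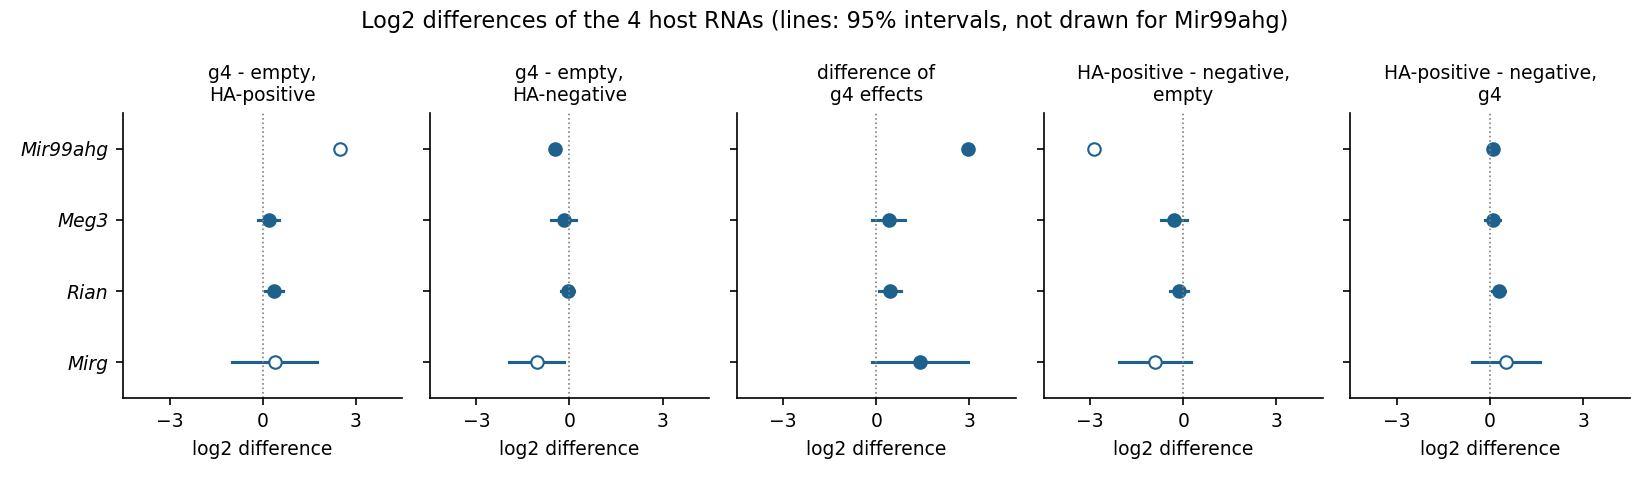
Log2 difference (horizontal axes) of each host in the 5 comparisons, with 95% intervals as lines for Meg3, Rian and Mirg; open circles are values from a fit without the filter on low counts, for hosts that did not pass it. Meg3 and Rian lie between -0.30 and 0.44, and the points farthest from 0 are those of Mir99ahg, shown without intervals because it was chosen for its values.

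Rian, the snoRNA and microRNA host next to Meg3, had its highest mean in g4 HA-positive nuclei, without passing the test. It ranged from 417 to 896 CPM in empty HA-positive (median 564, mean 630 ± 159), from 716 to 939 in g4 HA-positive (median 838, mean 827 ± 78.4, or 838 ± 79.5 without animal 19), from 503 to 831 in empty HA-negative (median 711, mean 705 ± 105) and from 545 to 779 in g4 HA-negative libraries (median 734, mean 681 ± 91.8; SD, n = 7 each). The g4 HA-positive values were the tightest of the 4 groups, and they overlapped with each of the others.

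In HA-positive nuclei, Rian was higher with g4 in 5 of 7 animals, with a log2 fold change of 0.38 ± 0.14 (95% interval 0.09 to 0.66). After adjustment over all 5011 genes the p was 0.696 by edgeR. In HA-negative nuclei the value was -0.05 ± 0.11 (adjusted p 0.999), with 4 animals higher and 3 lower, and the value turned to 0.039 when animal 19 was left out. The difference of the effects was 0.44 ± 0.18 (adjusted p 0.924 by edgeR).

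Between fractions, Rian was lower in HA-positive nuclei in 6 of 7 animals with the empty vector (-0.15 ± 0.14, adjusted p 0.649 by edgeR). With g4 it was higher in 6 of 7 (0.28 ± 0.10, unadjusted p 0.0118, adjusted p 0.122 by edgeR). These 2 sorts use different hemispheres of the same animals, and the difference between them is the difference of effects given above.

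Mirg, the host of 14 of the microRNA genes, was counted too thinly for most tests. From animal 17 to 23 it had 3, 4, 3, 11, 1, 12 and 3 counts in empty HA-positive, 3, 3, 25, 12, 12, 3 and 8 in g4 HA-positive, 2, 23, 6, 11, 28, 9 and 14 in empty HA-negative and 0, 3, 15, 6, 11, 4 and 4 in g4 HA-negative libraries. In CPM this was 2.82 to 24.7 (median 10.8, mean 12.1 ± 7.13), 6.05 to 27.3 (17.1, 15.5 ± 8.09, or 13.5 ± 6.78 without animal 19), 4.82 to 45.2 (18.4, 23.1 ± 13.9) and 0 to 26.6 (10.2, 10.9 ± 8.48; SD, n = 7 each). The count of 0 in the g4 HA-negative library of animal 17 allows up to 5.81 CPM.

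The highest Mirg mean was in empty HA-negative nuclei, and all 4 ranges overlapped. Mirg passed the filter only in the model of all 28 libraries, where the difference of the vector effects was 1.41 ± 0.78 (adjusted p 0.982 by edgeR), and it was 1.18 when animal 19's g4 HA-positive library was left out. Fitted without the filter, it had a log2 value of -1.06 ± 0.46 between the vectors in HA-negative nuclei (lower with g4 in 6 of 7 animals, adjusted p 0.548 by edgeR) and of 0.38 ± 0.71 in HA-positive nuclei (adjusted p 0.877 by edgeR). In the unfiltered sorts it had -0.92 ± 0.59 with the empty vector (lower in HA-positive nuclei in 5 of 7, adjusted p 0.427 by edgeR) and 0.53 ± 0.56 with g4 (higher in 6 of 7, adjusted p 0.659).

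**Figure D4:**
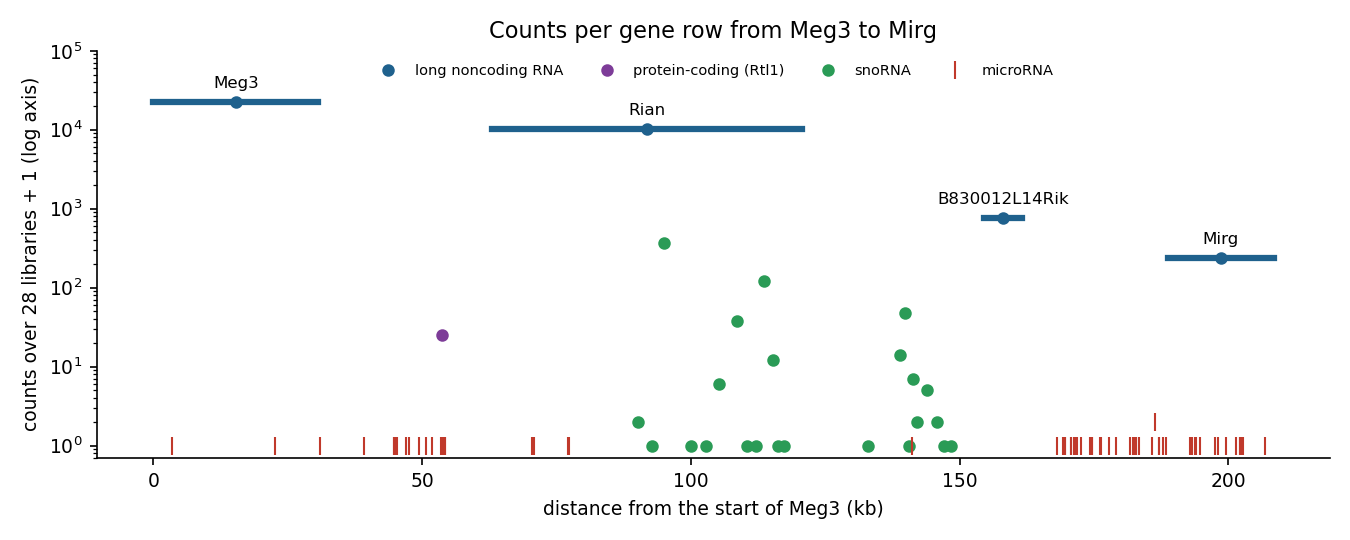
Counts summed over 28 libraries plus 1 (vertical axis, log scale) of each annotated gene against its distance in kb from the start of Meg3; bars span the long noncoding RNAs, points mark snoRNAs and Rtl1, and ticks mark microRNA genes. Meg3 and Rian stand at 22515 and 10269 counts, and all microRNA ticks but one lie at a count of 0.

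Along the stretch from Meg3 to Mirg the counts over 28 libraries, not scaled to length, were lower with each long noncoding RNA further along. They were 22515 for Meg3, 10269 for Rian, 769 for B830012L14Rik, an unnamed noncoding gene with no annotated microRNA or snoRNA inside it, and 239 for Mirg. Of 23 annotated snoRNA genes between them 12 had counts, 619 in all, and AF357425 inside Rian held 371 of these. Summed per library, the snoRNAs had 16.9 to 106 CPM in empty HA-positive (median 60.3), 2.02 to 131 in g4 HA-positive (median 52.5), 8.19 to 41.1 in empty HA-negative (median 26.5) and 9.68 to 53.4 in g4 HA-negative libraries (median 31.5). The medians were higher in HA-positive nuclei with both vectors, and the ranges overlapped. AF357425 itself was higher in HA-positive nuclei in 6 of 7 animals with the empty vector (log2 fold change 1.19 ± 0.51, adjusted p 0.179 by edgeR) and in 5 of 7 with g4 (0.50 ± 0.56, adjusted p 0.736). The empty-vector value did not pass under 10 of 12 alternatives, and it was 0.68 by limma voom (adjusted p 0.567). It passed without animal 21 (1.51, adjusted p 0.0391 by edgeR) and without the HA-positive libraries of fewer than 10000 genes (1.65, adjusted p 0.00671). Both of these leave out the empty HA-positive library of animal 21, which had 0 counts of AF357425.

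Of the 11 genes listed for the Dlk1-Dio3 domain, 10 were in the tables and 4 or 5 had enough counts for a test. None of these passed in any comparison, with 0 of 5 in the difference of effects and 0 of 4 in the others. Of all genes tested, 0.0599% and 0.0% were called between the vectors in HA-positive and HA-negative nuclei, and 0.0% in the difference of effects. The sorts called 7.01% (empty) and 6.4% (g4), so no call among so few genes does not set the domain apart. Apart from the hosts, the tested domain genes were B830012L14Rik and Ppp2r5c, a phosphatase subunit at the edge of the domain. B830012L14Rik had means of 49.3 ± 44.8, 69.0 ± 23.7, 45.7 ± 12.9 and 44.6 ± 12.7 CPM in the order used above. Ppp2r5c had 123 ± 29.4, 116 ± 26.1, 114 ± 19.3 and 118 ± 22.2 CPM (SD, n = 7 each for both). The other listed genes had few counts. Dlk1, a membrane ligand, had 12, 3, 25 and 16 counts over the 7 libraries of each group in that order, and Rtl1, a retrotransposon-derived gene on the strand opposite to the hosts, had 9, 0, 8 and 7. Dio3, a deiodinase that inactivates thyroid hormone, had 0, 1, 1 and 2 counts, Begain, a synaptic protein gene, 42, 51, 74 and 59, and Wdr25 8, 26, 1 and 12, where animal 19 held all but 3 of the 26. Between the vectors in HA-positive nuclei, the log2 differences were -0.11 (Ppp2r5c), 0.20 (Meg3), 0.38 (Rian) and 0.47 (B830012L14Rik). Their median was 0.29, against -0.01 for all 5011 genes. Marker lists had medians of 0.26 (excitatory neuron), 0.63 (astrocyte) and -0.20 (inhibitory neuron) there, so the value does not set the domain apart. In HA-negative nuclei the median of the tested domain genes was -0.03, against 0.00 for all 6262.

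Meg3 and Rian are neighbours on the same strand, and the ratio of Rian to Meg3 counts ran from 0.278 to 0.718 over the 28 libraries. Its median was 0.467 and its coefficient of variation 25.0%, where counting error alone would give 6.86%. Over the 28 libraries, which share depth and normalization, the correlation of log2 CPM was 0.35 between Meg3 and Rian, 0.33 between Meg3 and Mirg and -0.16 between Rian and Mirg. With Mir99ahg it was 0.34 for Rian, 0.29 for Meg3 and 0.21 for Mirg. After the group means were removed, these 3 values fell to 0.11, 0.06 and 0.08. The values among the others were then 0.29 (Meg3 and Rian), 0.27 (Meg3 and Mirg) and -0.33 (Rian and Mirg). Ordered by their correlation with Meg3 over the 28 libraries, Rian stood at rank 685 of 7196 genes, and at rank 967 with the group means removed.

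**Figure D5:**
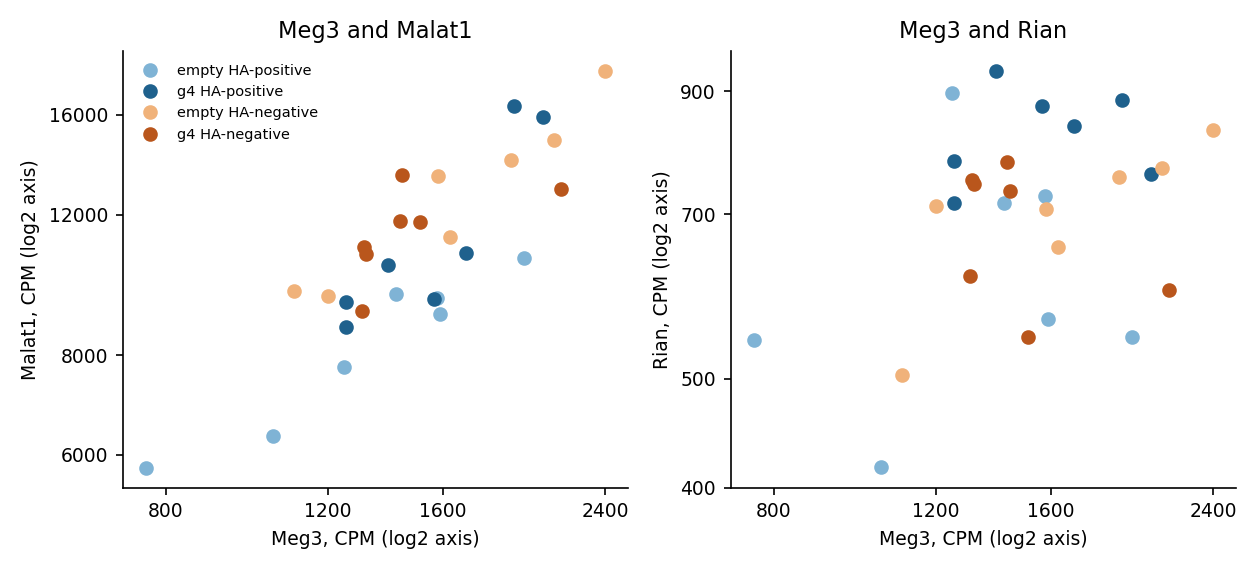
Level of Meg3 in CPM (horizontal axes, log2 scale) against Malat1 (left) and Rian (right) in CPM (vertical axes, log2 scale), 1 point per library, coloured by group. Malat1 follows Meg3 (correlation 0.85), while Rian is scattered (0.35).

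The gene most like Meg3 was Malat1, another abundant RNA retained in the nucleus, with a correlation of 0.85 over 28 libraries and 0.88 after the group means were removed. Meg3 stood at 13.2 to 18.5% of the Malat1 count in empty HA-positive, 11.7 to 16.6% in g4 HA-positive, 11.5 to 14.5% in empty HA-negative and 10.7 to 16.6% in g4 HA-negative libraries. Next came Snhg11 (0.72), a noncoding snoRNA host, then Ttc14 (0.71) and Slc20a2 (0.70), a phosphate transporter. For Rian the closest were Slc7a11 (0.75), a cystine transporter, Tial1 (0.73), an RNA-binding protein, 3830406C13Rik (0.71) and Ccdc50 (0.64).

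For Mir99ahg the closest genes were Tns3 (0.80), which links integrins to actin, Ccdc88a (0.77), an actin-binding protein, Slco1c1 (0.76), a thyroid hormone transporter, and Plppr4 (0.76). After removing the group means the values were 0.44 (Tns3), 0.43 (Ccdc88a), 0.56 (Slco1c1) and 0.50 (Plppr4). Mirg was closest to Dgkd (0.70), a diacylglycerol kinase, Sptbn1 (0.61), a spectrin, Mtch1 (0.61) and Ehmt2 (0.60), a histone methyltransferase. Each of these is among the 4 highest of 7196 correlations and is given without a test.

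Of 23 noncoding genes listed as other microRNA hosts, 18 were in the tables and 8 had enough counts in each comparison. These were Mir124-2hg and Mir124a-1hg, hosts of miR-124 hairpins, C130071C03Rik, a host of miR-9, A330023F24Rik, a host of miR-29, Mir100hg, Ftx, Miat and Snhg14. Apart from Mir100hg, whether a hairpin lies inside these genes was not looked up, so Ftx, Miat and Snhg14 are hosts by the list only. The only call among them was that of Mir124-2hg in the g4 sort, 1 of 8 in a comparison that called 6.4% of all genes tested. Mir124-2hg had 132 ± 31.3 CPM in g4 HA-positive and 42.3 ± 9.25 in g4 HA-negative libraries (log2 fold change 1.61 ± 0.21, adjusted p 3.11e-06 by edgeR), higher in each of 7 animals, and with the empty vector the value was 1.08 ± 0.56 (higher in 6 of 7, adjusted p 0.314). That value did not pass under 13 of 14 alternatives, and it was 0.12 by limma voom (adjusted p 0.956). It passed only without animal 22 (1.39, adjusted p 0.0247 by edgeR). Between the vectors, the median log2 difference of the 8 listed genes was 0.18 in HA-positive nuclei (6 higher with g4, 2 lower). In HA-negative nuclei it was -0.12 (2 higher, 6 lower). All genes tested had medians of -0.01 and 0.00, and none of the 8 was called between the vectors.

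Among 32 protein-coding hosts of intronic microRNAs, 18 to 26 were tested, and the same 2 were called in both sorts, lower in HA-positive nuclei. This was 2 of 20 with the empty vector and 2 of 24 with g4, beside 7.01% and 6.4% of all genes, and counts this small do not set the list apart. Arpp21, the host of miR-128-2 and a marker of excitatory neurons in the list above, fell by 1.06 ± 0.21 on the log2 scale with the empty vector (adjusted p 0.00132 by edgeR) and by 0.83 ± 0.13 with g4 (adjusted p 5.82e-05), lower in 7 of 7 animals in both. Htr2c, a serotonin receptor gene, fell by 1.64 ± 0.48 with the empty vector (lower in 7 of 7, adjusted p 0.0325 by edgeR) and by 1.35 ± 0.41 with g4 (lower in 6 of 7, adjusted p 0.0406). The Htr2c calls were lost under 8 of 14 alternatives with the empty vector and 9 of 15 with g4, among them the animal as a block (adjusted p 0.0544 and 0.0709). They were also lost when animals 17, 19, 20, 21 or 22 were left out with the empty vector (adjusted p 0.0546 to 0.0879) and 17, 20, 21, 22 or 23 with g4 (0.0636 to 0.251). No tested gene of either list was called between the vectors in either fraction or in the difference of effects. These comparisons called 0.0599% (HA-positive), 0.0% (HA-negative) and 0.0% (difference) of all genes tested, so the lack of calls does not set the lists apart.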

How the data were processed

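RNA of sorted motor cortex nuclei was counted per gene in 28 libraries. The authors deposited raw counts, 1 column per library, per the labels. The genome build is GRCm38, per the submitters' processing notes. Not given in the sources used here are the aligner, the counting program, its strand setting and any use of molecular identifiers. Empty cells were taken as 0 counts, and 1 entry without a gene name (0 counts) was left out. Groups and animal numbers came from the sample titles. For 3 animals the title number is 1 lower than in the column name, and descriptions tied samples to columns. Positions came from GENCODE vM21 (41474 of 41549 identifiers matched) and microRNA sequences from RefSeq (GRCm38.p6).

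The main test was edgeR's quasi-likelihood test (version 4.0.16, R 4.3.3), two-sided and with a robust fit, after filterByExpr by group and TMM scaling. P-values were adjusted by Benjamini-Hochberg over all genes tested, and genes were called at an adjusted p under 0.05. Adjusted p-values come from it unless another tool is named. CPM used TMM factors over 28 libraries and the 7197 genes that passed the filter there. Counts summed to 248612 to 902944 per library. No 2 columns were identical (highest correlation 0.899). P-values measure the spread between these libraries of 7 animals. The scripts were tested on simulated data.

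Same-numbered libraries come from the same animal, per the labels. Their deviations from group means correlated weakly (median r 0.011 to 0.061 over 4 pairs of groups, range -0.10 to 0.13). The alternatives were DESeq2 1.42.0, limma 3.58.1 voom, other scaling, no filter, the animal as a block, and libraries left out. The members and lists were chosen with earlier results of these data known. The rule for named genes took the 4 hosts, the tested genes of the Dlk1-Dio3 domain and of the noncoding hosts, called protein-coding hosts, neighbours of Mir99ahg and the 4 genes most correlated with each host (log2 CPM with a prior count of 2). Mir100hg and AF357425 were singled out after their values were seen.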

Additional observations from a re-analysis of the deposited data

Results flagged for a closer look

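In 2 of the 16 sets of 7 libraries (4 hosts in 4 groups), 1 library stood apart from the other 6, judged by its gap to the nearest other value as a share of the whole range against Dixon's 95% critical value. Chance alone flags about 1 in 20 such sets where values are normally distributed. That rate need not hold for sets of low counts, such as the flagged one of Mir99ahg, which includes counts of 0. Mir99ahg in the empty HA-positive library of animal 20 had 8 counts and 13.0 CPM, with a gap of 0.677 of the range. Meg3 in the g4 HA-negative library of animal 18 had 2151 CPM, with a gap of 0.759 of the range.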

How the results depend on the processing

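Meg3, Rian and Mirg passed the test in no alternative in which they had a value. For Mir99ahg no test is read under any setting, since this RNA was chosen for its values. The log2 difference of Rian between the vectors in HA-negative nuclei (-0.05) lay between -0.087 and 0.039 with 1 animal left out, turning sign without animal 19. That of Mir100hg in the g4 sort (-0.13) lay between -0.28 and 0.045, turning sign without animal 17. The cause was not tested. Counts of called genes were less stable. For g4 against empty in HA-positive nuclei, 3 by edgeR became 11 by DESeq2, 1 by limma voom, 28 without the filter on low counts, 1 with the animal as a replicate block, 5 without the g4 library of animal 19, 0 without the HA-positive libraries of fewer than 10000 genes, and 1 to 4 with 1 animal left out. In HA-negative nuclei 0 became 1 by DESeq2, and for the difference of effects 0 became 3 without the filter. In the empty sort 388 became 661 without the filter and 251 to 371 with 1 animal left out (251 without animal 19). In the g4 sort 401 became 259 with library size alone and 218 to 422 with 1 animal left out (218, 224 and 241 without animals 20, 21 and 22), and 507 when only animal 19's g4 HA-positive library was left out. The block changed no call of Meg3, Rian or Mirg, gave 324 and 391 calls in the 2 sorts, and ended the Htr2c calls and added Ncam2 in the g4 sort. Depth limits Mir99ahg and Mirg most, at 302 and 239 counts in all 28 libraries.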
